A study of Mus musculus with 12 samples.

Results

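The colony-stimulating factors and their receptors were examined in the colon of mice with and without colitis. The 6 genes Csf1, Csf2, Csf3, Csf3r, Csf2ra and Csf2rb were taken by symbol from a table of 54532 genes, of which 24102 were tested, and all 6 members were among those tested. Csf3 had reads only in colitic mice and Csf2 was close to the limit of detection elsewhere, so both passed the filter on low values through the groups in which they were high.

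Polyadenylated RNA of whole colon from adult mice was sequenced from 12 mice, each giving 1 library, in 4 groups of 3. In Tmem173fl/fl mice loxP sites flank Tmem173, the gene of the DNA-sensing adaptor STING, and there is no Cre. Tmem173fl/fl Lyz2-CreERT2 mice, named Tmem173iΔmye, carry in addition a tamoxifen-inducible Cre in the Lyz2 locus, which is active in macrophages, monocytes and neutrophils and leaves the gene intact in epithelium, fibroblasts and lymphocytes. All mice, controls included, had 5 injections of tamoxifen. Colitis was induced in both genotypes with 7 days of dextran sulfate sodium (DSS), a compound toxic to the gut lining, in the drinking water, and untreated mice drank plain water. Replicates are numbered 1, 2 and 5 in the colitic Tmem173iΔmye group and 1 to 3 in the others.

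Colony-stimulating factors are secreted proteins that drive the production, survival and activation of myeloid cells. M-CSF, made from Csf1, acts on macrophages through the kinase receptor Csf1r, which it shares with IL-34. G-CSF, made from Csf3, acts through Csf3r and calls neutrophils out of the bone marrow, and GM-CSF, made from Csf2, acts through the binding chain Csf2ra and the signalling chain Csf2rb, which also serves the IL-3 and IL-5 receptors. In the gut these factors come from stromal, epithelial and lymphoid cells as well as from macrophages, while the receptors are carried mainly by myeloid cells.

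Library totals ran from 13823237 to 18718915 counts. Levels are given as CPM, read counts made comparable between libraries by TMM scaling, and as FPKM, which also divides by gene length, wherever different genes are compared. Tmem173 was at 34.2 ± 12.3 CPM in colitic Tmem173iΔmye mice and at 41.4 ± 3.30 CPM in colitic Tmem173fl/fl mice (SD, n = 3 each; edgeR adjusted p = 0.602), so a loss of the targeted gene was not detectable at the level of the whole gene in whole tissue. Lyz2, the gene that hosts the Cre, was at 193.1 ± 72.8 CPM in untreated Tmem173fl/fl and 95.2 ± 19.2 CPM in untreated Tmem173iΔmye mice (SD, n = 3 each; edgeR adjusted p = 1.0). Its log2 fold change was -1.01 (SE 0.23) with an unadjusted edgeR p of 0.000754, which failed the correction. In that comparison 2.99% of all genes tested had an unadjusted p under 0.05. Xist exceeded the Y-linked Ddx3y in 3 of the 12 libraries, namely both untreated replicates numbered 3 and colitic Tmem173iΔmye replicate 5, and in the other 9 the reverse held. Summed pancreas genes varied from 99.2 to 7838 CPM between libraries, with 7838 CPM in replicate 1 of the colitic Tmem173iΔmye group and 6851 and 3464 CPM in replicates 1 and 2 of the colitic Tmem173fl/fl group. Replicates 1 and 5 of the colitic Tmem173iΔmye group also lay at opposite ends of its range for Csf3r, Csf2rb and Csf1r. Results of the members that rest on them are therefore given with and without them. Counts over other gene lists were also taken without each library in turn, a setting added for those lists after the data were seen. It was run with DSS in Tmem173iΔmye mice and between colitic genotypes, so list counts with DSS in Tmem173fl/fl mice have no such range. Nothing in the labels names a batch. In whole tissue, fewer cells of a type and less RNA per cell cannot be told apart.

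Promoters of 4 of the 6 members (Csf1, Csf2, Csf2ra and Csf3r) were found in the RefSeq promoter set of GRCm38.p6, each with 250 bases before and 50 bases after the RefSeq start of the gene. That start is the same as the gene's 5′ end in the count table for Csf1 and Csf2ra and lies 109 bases inside the gene for Csf3r. For Csf2 it lies 232 bases upstream, so the window does not reach the gene as counted here and the bases next to that 5′ end were not searched. Those of Csf1 and Csf3r are shown because both genes were called higher in colitic Tmem173fl/fl mice also without each library in turn, which Csf2 was not, and their windows hold matches to the κB motif, the letters bound by NF-kB proteins. Capitals mark every match to the motifs searched.

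Csf1 promoter, chr3:107760420-107760719, minus strand: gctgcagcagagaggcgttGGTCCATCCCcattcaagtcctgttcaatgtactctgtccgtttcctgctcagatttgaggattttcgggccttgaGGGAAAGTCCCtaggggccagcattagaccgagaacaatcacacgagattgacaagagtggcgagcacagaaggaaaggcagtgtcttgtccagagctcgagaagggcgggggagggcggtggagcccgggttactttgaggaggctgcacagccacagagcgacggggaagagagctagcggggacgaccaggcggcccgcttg

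Csf3r promoter, chr4:126024409-126024708, plus strand: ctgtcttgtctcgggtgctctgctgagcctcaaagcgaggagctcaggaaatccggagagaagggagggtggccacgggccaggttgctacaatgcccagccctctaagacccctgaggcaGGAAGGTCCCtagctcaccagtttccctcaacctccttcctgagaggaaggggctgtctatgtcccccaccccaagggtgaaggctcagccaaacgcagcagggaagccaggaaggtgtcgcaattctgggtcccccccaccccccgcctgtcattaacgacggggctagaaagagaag

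The motifs were κB (GGGA, any 4 bases, CC), C/EBP (TTNNGNAA), AP-1 (TGANTCA), the cytokine element CK-1 and the TATA box (TATAAA), on both strands. A κB match was in the windows of Csf1, Csf2 and Csf3r and in 20.7% of all 32851 promoters of the same length. In Csf1, 2 of the 3 matches overlap and form the run GGGAAAGTCCC, which begins 155 bases before the RefSeq start, and the single match in Csf3r begins 129 bases before the RefSeq start of that gene. C/EBP matches were in the windows of Csf2 and Csf2ra and in 40.7% of all promoters. Matches to AP-1, CK-1 and TATA, held by 7.81%, 0.183% and 13.6% of all promoters, were in none of the 4 windows. A match describes the letters only and is no measure of binding.

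In the untreated colon of both genotypes the factors were represented almost wholly by Csf1. It made up 96.9% to 100% of the summed FPKM of Csf1, Csf2 and Csf3 in the 6 untreated libraries, and Csf3 had 0 reads in every one of them. Among the 6 members Csf2ra had the highest FPKM, at 13.2 ± 2.93 in untreated Tmem173fl/fl mice (SD, n = 3). Csf1 followed at 3.87 ± 0.607 FPKM, Csf2rb at 2.96 ± 0.722 FPKM and Csf3r at 1.16 ± 0.0502 FPKM. The ranges of Csf1 and Csf2rb overlapped, whereas Csf2ra lay above and Csf3r below them in every library of that group. Csf2 had 1, 0 and 1 reads, which is at the floor of 3 counts.

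No member was called between the genotypes in untreated mice (0 of 6, against 0.0% of all genes, by edgeR). Calls needed an edgeR adjusted p under 0.05 together with a log2 fold change of 1 or more in size. Unadjusted, 0 of the 6 members and 720 of all genes tested had a p under 0.05, and limma and DESeq2 also called 0 members. The estimates ran from a log2 fold change of -0.31 (SE 0.22) for Csf2rb to 0.19 (SE 0.26) for Csf3r, and 2 SE either side of the estimate for Csf1 ran from -0.19 to 0.52. Csf2 had 2 reads per group, and Csf3 at 0 allowed no estimate.

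With DSS, 5 of the 6 members were called higher in Tmem173fl/fl mice, against 14.9% of all genes tested called higher and 22.5% called in either direction. Csf2 and Csf3 passed the filter through the groups where they were high. Of the other 4 members, Csf1, Csf3r and Csf2rb were called. The median log2 fold change was 1.88 over those 4 members and 0.03 over all genes tested. Csf2ra was the exception, and passed the adjusted p but not the fold threshold. In Tmem173iΔmye mice 1 of the 6 members, Csf3, was called higher, against 1.48% of all genes called higher. Between the colitic genotypes 1 of the 6, again Csf3, was called, and it was lower in Tmem173iΔmye mice, against 1.99% of all genes called lower. None of the 4 members other than Csf2 and Csf3 was called with DSS in Tmem173iΔmye mice or between the colitic genotypes. Both DSS comparisons share their colitic libraries with the genotype comparison.

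**Figure D1:**
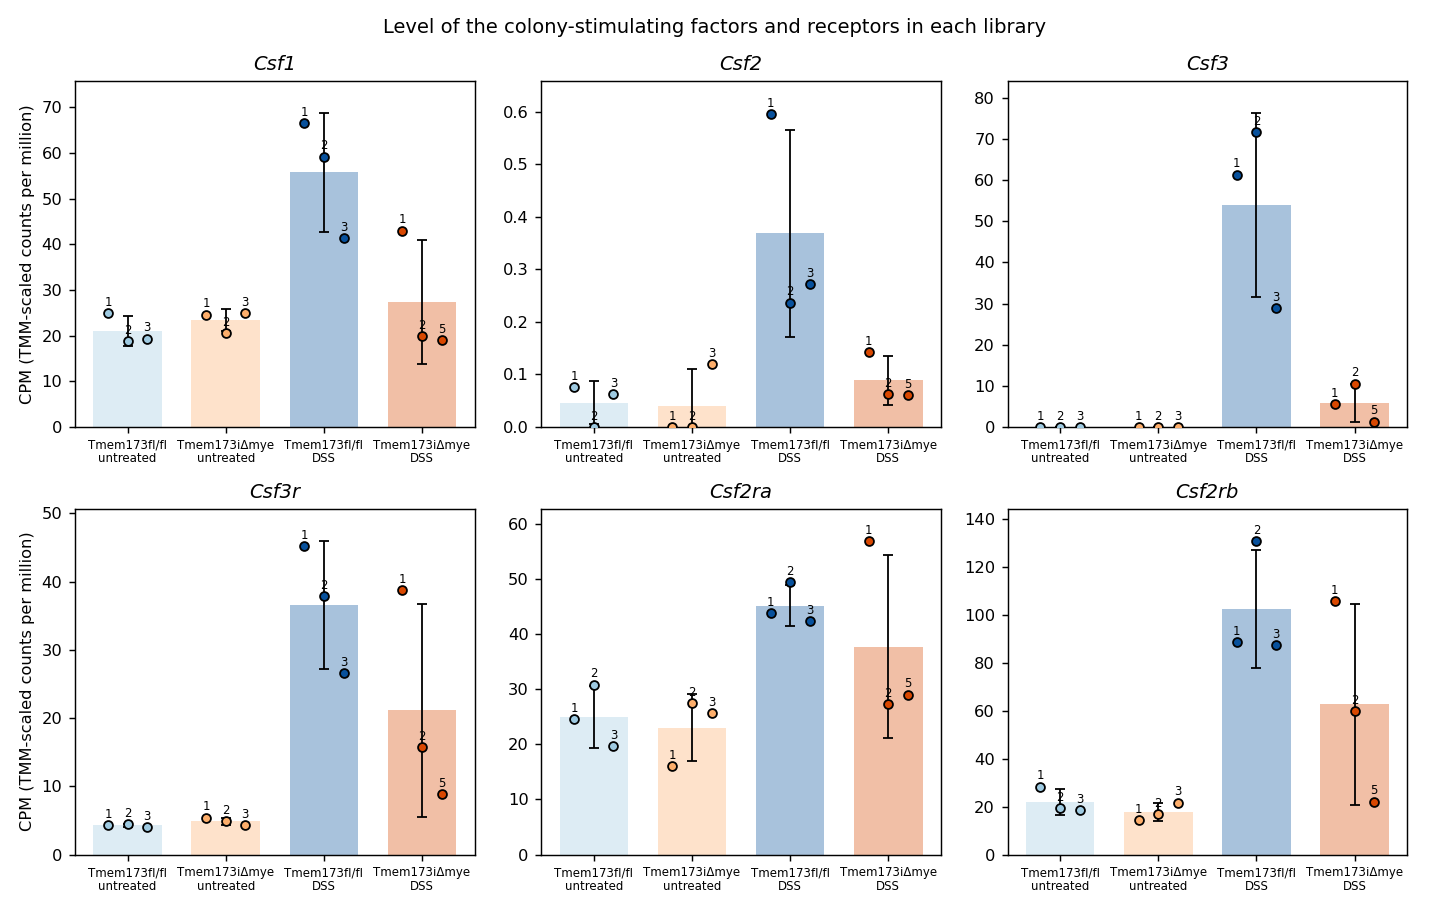
Level of each member in CPM (vertical axes, 1 scale per gene) in the 12 libraries by group. Bars are means, error bars the SD over 3 libraries, and points single libraries labelled with their replicate number. Csf3 stood at 28.9 CPM or more in colitic Tmem173fl/fl mice and at 10.5 CPM or less in colitic Tmem173iΔmye mice, while replicate 1 of the latter group reached the colitic Tmem173fl/fl range for the receptors.

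Csf3 (ENSMUSG00000038067, GRCm38 chromosome 11, 98701263 to 98703629, plus strand), the G-CSF gene, went from no reads in untreated mice to the highest FPKM of the factors in colitic Tmem173fl/fl mice. It was at 0 CPM in all 6 untreated libraries and at 61.3, 71.7 and 28.9 CPM in colitic Tmem173fl/fl replicates 1, 2 and 3. In colitic Tmem173iΔmye mice it was at 5.56, 10.5 and 1.27 CPM in replicates 1, 2 and 5. Every colitic library was above every untreated one, an ordering held by 23.9% of all genes in Tmem173fl/fl and 12.1% in Tmem173iΔmye mice, and the highest Tmem173iΔmye library lay below the lowest Tmem173fl/fl library, an ordering held by 14.8% of all genes.

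Against a floor of 3 counts per untreated library, the Csf3 mean of colitic Tmem173fl/fl mice was at least 262-fold higher (edgeR adjusted p = 1.15e-05), and that of colitic Tmem173iΔmye mice at least 32.0-fold higher (edgeR adjusted p = 0.0137). These bounds use the mean of the group and the floor of its own untreated libraries. The bound in Tmem173iΔmye mice leans on colitic replicate 2, at 10.5 CPM, and would be lower without it. The call in Tmem173iΔmye mice was lost with limma (adjusted p = 0.0815 on log2(FPKM + 0.1) and 0.167 on log2(FPKM + 1)) and without each untreated library (edgeR adjusted p from 0.0854 to 0.0972). Between colitic genotypes Csf3 was lower in Tmem173iΔmye mice by a log2 fold change of -3.24 (SE 0.65, edgeR adjusted p = 0.0388), or to 0.106 of the Tmem173fl/fl level. The call stood without replicate 5 of the colitic Tmem173iΔmye group, at -2.76 and an adjusted p of 0.0312. It was lost without any other library, with fewer samples in each such fit: the estimates then ran from -3.98, without Tmem173iΔmye replicate 2, to -2.97, without Tmem173fl/fl replicate 2, and the adjusted p reached 0.136 without Tmem173fl/fl replicate 1. limma on log2(FPKM + 0.1) gave -3.55 with an adjusted p of 0.118, and DESeq2 -3.20 with an adjusted p of 4.22e-06. The interaction of genotype and DSS could not be estimated for Csf3 from the counts, as both untreated groups were at 0.

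Csf1 (ENSMUSG00000014599, chromosome 3, 107741048 to 107760469, minus strand), the M-CSF gene, rose with DSS in Tmem173fl/fl mice. Untreated Tmem173fl/fl libraries had 24.8, 18.8 and 19.4 CPM, and colitic ones 66.6, 59.2 and 41.3 CPM, with no overlap. The rise was 2.79-fold (log2 fold change 1.48, SE 0.20, edgeR adjusted p = 0.000318), and it kept its call without each library in turn and under each other setting tried.

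In Tmem173iΔmye mice Csf1 was at 24.6, 20.6 and 24.9 CPM untreated and at 43.0, 19.9 and 18.9 CPM in colitic replicates 1, 2 and 5. Only replicate 1 was above the untreated range, and the other two were below it. The log2 fold change with DSS was 0.22 (SE 0.32, edgeR adjusted p = 0.794), and it was -0.27 without replicate 1. Between colitic genotypes the estimate was -1.03 (SE 0.35; unadjusted p = 0.0160 and adjusted p = 0.145 by edgeR), and the groups overlapped by replicate 1 alone. Without that library the estimate was -1.54 and the adjusted p 0.0211, without replicate 2 they were -0.84 and 0.330, and without replicate 5 they were -0.83 and 0.263. With each library of both colitic groups left out in turn, the edgeR adjusted p reached 0.400. The difference between the DSS responses was -1.19 (SE 0.40, adjusted p = 0.139 for the edgeR interaction), -1.68 with an adjusted p of 0.00499 without replicate 1 and -0.998 with an adjusted p of 0.210 without replicate 5.

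Csf2 (ENSMUSG00000018916, chromosome 11, 54247271 to 54249667, minus strand), the GM-CSF gene, had few reads in any library. Colitic Tmem173fl/fl mice had 11, 5 and 4 reads, and untreated ones 1, 0 and 1. Colitic Tmem173iΔmye mice had 2, 1 and 1 reads and untreated ones 0, 0 and 2, all at the floor. The ratio of library-scaled reads was 8.10 for DSS in Tmem173fl/fl mice (95% exact counting interval 1.97 to 71.5) and 0.233 for colitic Tmem173iΔmye over Tmem173fl/fl mice (0.0579 to 0.696). These intervals cover counting error only.

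edgeR called the rise of Csf2 in Tmem173fl/fl mice (log2 fold change 2.88, SE 0.995, adjusted p = 0.0464), and lost it without any one of the 6 libraries (adjusted p from 0.0603 to 0.187). DESeq2 gave an adjusted p of 0.0908. Between colitic genotypes the fitted level in Tmem173iΔmye mice was 0.249 of that in Tmem173fl/fl mice (edgeR adjusted p = 0.229), although no library of one group reached the other, which held for 14.8% of all genes in the lower direction. A change with DSS in Tmem173iΔmye mice was not detectable at this depth. Of the 800 exonic bases of Csf2, 96 overlap the antisense gene Gm12223, which had 4 reads in all. The use of strand in counting is not given in the sources used here, so reads from that overlap could be of either gene.

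**Figure D2:**
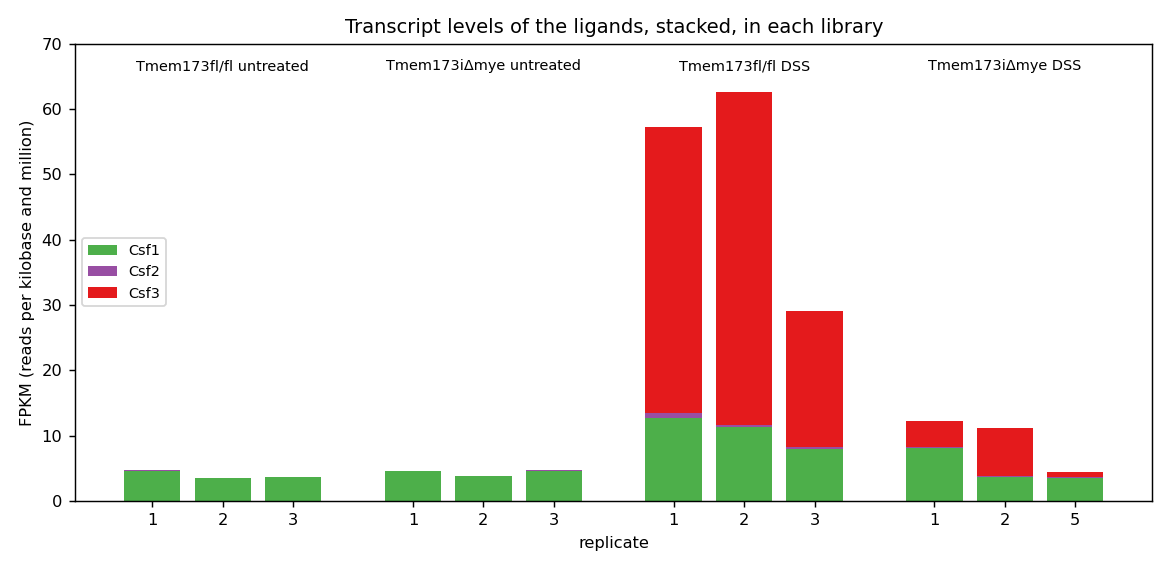
FPKM of Csf1, Csf2 and Csf3, stacked, in each library (horizontal axis, replicate number within its group). The sum was 3.46 to 4.79 FPKM in untreated mice, 29.1 to 62.6 FPKM in colitic Tmem173fl/fl mice, and 12.2, 11.1 and 4.45 FPKM in colitic Tmem173iΔmye replicates 1, 2 and 5.

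On the FPKM scale, which allows the factors to be set side by side, Csf3 made up 71.5% to 81.5% of the summed ligand transcripts in colitic Tmem173fl/fl mice. In colitic Tmem173iΔmye mice its share was 32.1%, 65.9% and 19.8% in replicates 1, 2 and 5, below every colitic Tmem173fl/fl library. Csf1 made up 66.4%, 33.4% and 78.6% in the same 3 libraries. Csf2 held 0.476% to 1.66% of the sum in the 6 colitic libraries. Replicate 5, whose Csf1 of 3.50 FPKM was below the 3.81 to 4.64 FPKM of untreated Tmem173iΔmye mice and within the 3.46 to 4.57 FPKM of untreated Tmem173fl/fl mice, was the library with the least Csf3, at 0.880 FPKM.

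Csf3r (ENSMUSG00000028859, chromosome 4, 126024550 to 126044440, plus strand), the G-CSF receptor of neutrophils and their precursors, was called higher with DSS in Tmem173fl/fl mice. Untreated Tmem173fl/fl libraries had 4.32, 4.47 and 4.07 CPM and colitic ones 45.2, 37.8 and 26.6 CPM. The rise was 8.94-fold (log2 fold change 3.16, SE 0.23, edgeR adjusted p = 6.74e-06), and it was called in every alternative tried.

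In Tmem173iΔmye mice Csf3r was at 5.40, 4.91 and 4.27 CPM untreated and at 38.7, 15.8 and 8.86 CPM in colitic replicates 1, 2 and 5. All 3 colitic libraries exceeded the untreated ones. The log2 fold change of 2.11 (SE 0.47) missed the threshold at an edgeR adjusted p of 0.0504. It was called without replicate 5 (2.52, adjusted p = 0.00172) and by DESeq2 (2.13, adjusted p = 0.000198), and not by limma nor without replicate 1 (1.34, adjusted p = 0.104). Between colitic genotypes the estimate was -0.79 (SE 0.48, adjusted p = 0.396), with 2 SE either side from -1.76 to 0.17. Replicate 1 lay within the colitic Tmem173fl/fl range and the other two below it. Without replicate 1 the estimate was -1.59 with an adjusted p of 0.0394, and without replicate 5 it was -0.43 with an adjusted p of 0.605. With each library of both colitic groups left out in turn, the edgeR adjusted p reached 0.684.

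Csf2ra (ENSMUSG00000059326, chromosome 19, 61224402 to 61228418, minus strand), the ligand-binding chain of the GM-CSF receptor, changed least of the members in colitic Tmem173fl/fl mice. Untreated Tmem173fl/fl libraries had 24.5, 30.9 and 19.7 CPM and colitic ones 43.8, 49.4 and 42.4 CPM, without overlap. The log2 fold change was 0.93 (SE 0.17, edgeR adjusted p = 0.00228), a 1.90-fold difference, and without untreated replicate 2 it reached 1.10 and the gene was called.

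In Tmem173iΔmye mice Csf2ra was at 16.1, 27.4 and 25.7 CPM untreated and at 56.9, 27.3 and 29.0 CPM in colitic replicates 1, 2 and 5. Replicate 1 had the highest value of all 12 libraries, and replicate 2 lay within the untreated range. Neither the response to DSS (0.71, SE 0.32, adjusted p = 0.324) nor the difference between colitic genotypes (-0.26, SE 0.29, adjusted p = 0.656) passed the edgeR test. For the latter, 2 SE either side ran from -0.85 to 0.32. Without replicate 1 the DSS response was 0.29 (adjusted p = 0.727) and the colitic genotype difference -0.70, which passed the adjusted p at 0.0497 but not the fold threshold. Without replicate 5 they were 0.90 (adjusted p = 0.120) and -0.11 (adjusted p = 0.894). For the colitic genotype difference, leaving out each library of both groups in turn gave edgeR adjusted p of up to 0.935.

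Csf2rb (ENSMUSG00000071713, chromosome 15, 78325752 to 78353847, plus strand), the common β chain that carries the signal, rose with DSS in Tmem173fl/fl mice. Untreated Tmem173fl/fl libraries had 28.4, 19.4 and 18.5 CPM and colitic ones 88.9, 131.0 and 87.6 CPM. The rise was 4.88-fold (log2 fold change 2.29, SE 0.22, edgeR adjusted p = 4.02e-05), and it too was called in every alternative tried.

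In Tmem173iΔmye mice Csf2rb was at 14.3, 17.0 and 21.7 CPM untreated and at 106.0, 59.9 and 22.2 CPM in colitic replicates 1, 2 and 5. The colitic values spread over nearly the whole distance between the untreated and the colitic Tmem173fl/fl levels, with replicate 5 next to the untreated libraries. The response to DSS was 1.82 (SE 0.45, edgeR adjusted p = 0.0753), and 2.26 with an adjusted p of 0.000584 without replicate 5. Without replicate 1 it was 1.22 (adjusted p = 0.212). DESeq2 called it (1.84, adjusted p = 0.00121), and limma did not, with adjusted p of 0.313 and 0.300 at pseudocounts of 0.1 and 1. Between colitic genotypes the estimate was -0.71 (SE 0.47, edgeR adjusted p = 0.437), with 2 SE either side from -1.66 to 0.23. It was -1.35 (adjusted p = 0.101) without replicate 1 and -0.31 (adjusted p = 0.619) without replicate 5. With each library of both colitic groups left out in turn, the edgeR adjusted p reached 0.725.

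The neighbouring gene Csf2rb2 is a near copy of Csf2rb whose product serves IL-3 alone. The longest stretch identical in both is 242 bases, and 2.30% of the 150-base stretches of Csf2rb transcripts are also in Csf2rb2, so some reads could be counted for either and values of both genes carry that uncertainty. With the counts of both genes summed, a setting added after the data were seen, the rise in Tmem173fl/fl mice was 2.44 (edgeR adjusted p = 2.01e-05) and the colitic genotype difference -0.68 (adjusted p = 0.423).

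**Figure D3:**
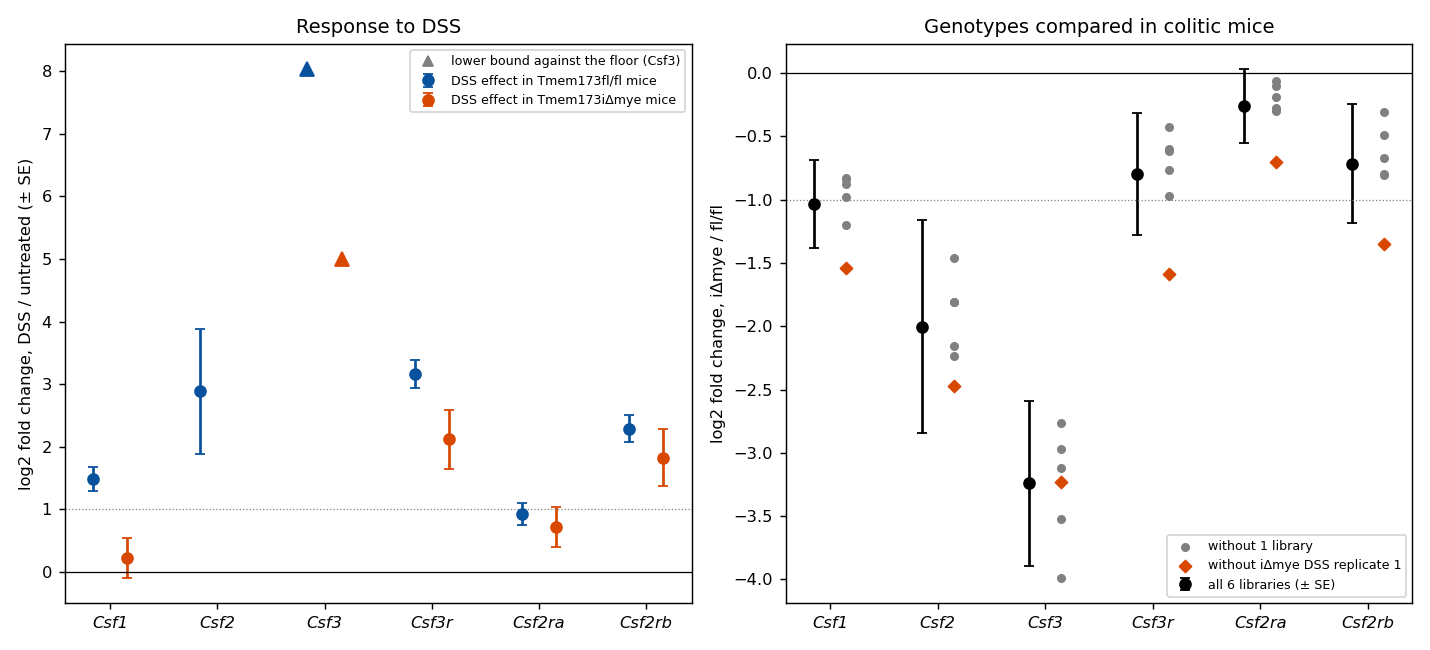
Left, log2 fold change with DSS in Tmem173fl/fl and Tmem173iΔmye mice (points, ± SE); triangles are lower bounds for Csf3 against the floor, and Csf2 in Tmem173iΔmye mice is not drawn because both groups were at the floor. Right, log2 fold change of colitic Tmem173iΔmye over Tmem173fl/fl mice with all 6 libraries (black, ± SE) and without 1 library each (grey; diamonds, without Tmem173iΔmye replicate 1). All 6 estimates on the right are below 0, and the diamond is the lowest value for each gene but Csf3.

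All 6 members had a negative estimate in the comparison of colitic genotypes, with a median log2 of -0.75 over the 4 members other than Csf2 and Csf3 and 0.02 over all genes tested. Besides Csf3, Csf1 and Csf2 had an unadjusted edgeR p under 0.05 (0.0160 and 0.0418) and failed the correction, and 20.2% of all genes tested had an unadjusted p under 0.05 in this comparison. Each member's estimate stayed negative in every alternative run, 13 for each gene and 14 for Csf2rb. The estimates for Csf1, Csf2, Csf3r, Csf2ra and Csf2rb were lowest without replicate 1 of the colitic Tmem173iΔmye group. Csf3 moved little without it (-3.23, adjusted p = 0.0652). In that mouse the receptors were at 38.7 CPM for Csf3r, 56.9 CPM for Csf2ra and 106.0 CPM for Csf2rb, each within or above the colitic Tmem173fl/fl range, while Csf3, at 5.56 CPM, was under a range that began at 28.9 CPM.

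The ratio of Csf3 to Csf3r in FPKM was 3.46, 4.84 and 2.78 in colitic Tmem173fl/fl mice and 0.367, 1.70 and 0.367 in colitic Tmem173iΔmye mice, so the ligand exceeded its receptor in every mouse of the first group and in 1 of 3 of the second. The ratio of the GM-CSF receptor chains also differed between untreated and colitic Tmem173fl/fl mice. Csf2rb stood at 0.157 to 0.294 of the Csf2ra FPKM in untreated libraries of both genotypes and at 0.515 to 0.673 in colitic Tmem173fl/fl libraries. In colitic Tmem173iΔmye mice the ratio was 0.473 and 0.557 in replicates 1 and 2, and 0.194, within the untreated range, in replicate 5.

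The interaction of genotype and DSS was called for 0 of the 6 members, against 2.55% of all genes tested, by edgeR. Csf1 was the 1 member with an unadjusted p under 0.05, as 18.1% of all genes tested had, and DESeq2 also called 0. The estimates were negative for the 5 members with a usable fit, at -0.98 (SE 0.57, adjusted p = 0.389) for Csf3r, -0.39 (SE 0.57) for Csf2rb and -0.14 (SE 0.40) for Csf2ra. Without replicate 1 of the colitic Tmem173iΔmye group, Csf1 and Csf3r were both called, the latter at -1.75 with an adjusted p of 0.0142. Without replicate 5 neither was called, and Csf3r was at -0.62 with an adjusted p of 0.510.

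Csf3r was set against the cells that carry it. Neutrophil markers, among them S100a8 and S100a9 (subunits of calprotectin) and the collagenase gene Mmp8, were called higher with DSS for 12 of 12 genes in Tmem173fl/fl mice and 8 of 12 in Tmem173iΔmye mice, with median log2 fold changes of 6.91 and 3.68. Between colitic genotypes 9 of the 12 were called lower, with a median of -2.70. S100a9 fell from 140.5 to 18.1 CPM (log2 fold change -2.97, SE 0.56, edgeR adjusted p = 0.0327), and Mmp8 from 41.5 to 3.77 CPM. Without 1 library the 8 called with DSS became 0 to 1 without an untreated library, 5 and 6 without colitic replicates 1 and 2, and 11 without replicate 5. The 9 called lower became 0 without Tmem173fl/fl replicate 1, 1 without Tmem173fl/fl replicate 2 or 3 or Tmem173iΔmye replicate 2, 7 without Tmem173iΔmye replicate 1 and 11 without replicate 5. The summed markers were at 44.3 to 106.1 CPM in untreated mice, 539.0 to 880.2 CPM in colitic Tmem173fl/fl mice and 222.9 to 322.3 CPM in colitic Tmem173iΔmye mice. Mmp8 had 0 reads in untreated Tmem173iΔmye mice, and no marker was at 0 in either colitic group. The part of these cells in the changes of Csf3r and Csf3 was not tested.

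Csf3r was then expressed relative to the mean of the neutrophil markers. On the log2(CPM + 0.1) scale it stood 2.94 ± 0.85 above that mean in untreated Tmem173fl/fl mice and -0.04 ± 0.42 from it in colitic ones (SD, n = 3; exact two-sided permutation p = 0.1, the smallest that 3 against 3 libraries allow). In colitic Tmem173iΔmye mice it stood 1.64 ± 0.74 above them, 1.68 more than in colitic Tmem173fl/fl mice, with no overlap (exact permutation p = 0.1). Leaving out each library in turn gave differences from 1.38 to 2.09 between the colitic genotypes. In untreated Tmem173fl/fl mice 3 of the 12 markers averaged less than the 0.1 CPM added, so the untreated value depends in part on that number. Ly6g, a surface protein of neutrophils, did not follow the other markers. It averaged 185.7 CPM in Tmem173iΔmye mice with DSS, and 153.9 CPM with and 72.5 CPM without DSS in Tmem173fl/fl mice. The other 11 markers summed to 84.1, 558.2 and 5.92 CPM on average in the same groups. Against the sum of those 11, a measure added after the data were seen, the log2 difference of Csf3r was 1.99 for Tmem173iΔmye minus Tmem173fl/fl colitis and -3.62 for DSS in Tmem173fl/fl mice, without overlap in either (exact permutation p = 0.1 each). With Ly6g in the sum the differences were 0.37 (exact permutation p = 0.6) and -0.21 (exact permutation p = 0.7), both with overlap.

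**Figure D4:**
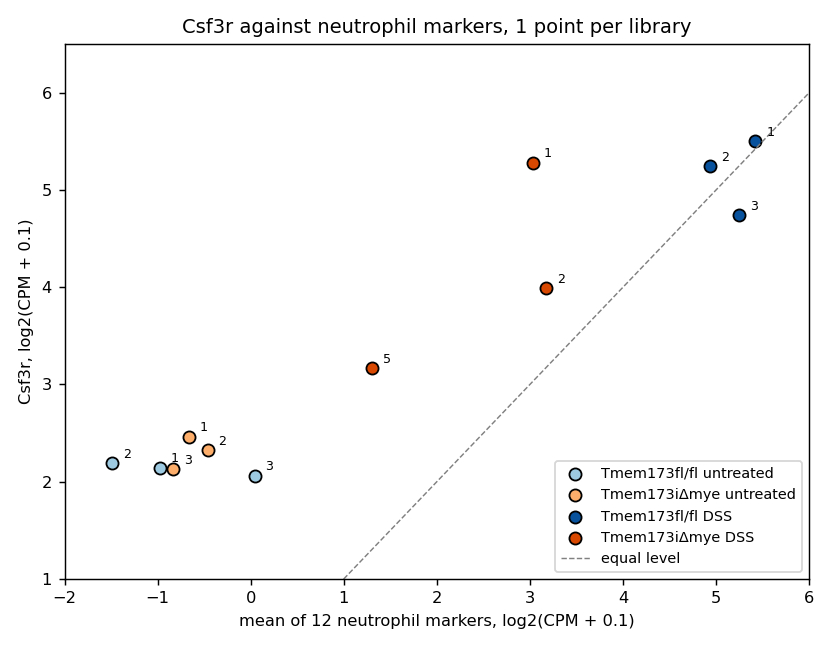
Csf3r (vertical axis) against the mean of 12 neutrophil markers (horizontal axis), both in log2(CPM + 0.1), with 1 point per library labelled by its replicate number and a dashed line of equal level. Colitic Tmem173fl/fl libraries lie near the line, and the 3 colitic Tmem173iΔmye libraries lie 0.81 to 2.24 above it.

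Of 6 genes of immature neutrophil granules tested, 5 were called higher with DSS in Tmem173fl/fl mice and 3 in Tmem173iΔmye mice. The count in Tmem173iΔmye mice was 2 without any untreated library and 3 without each colitic one. Of the 6, 3 were called lower in the colitic Tmem173iΔmye group than in colitic Tmem173fl/fl mice. That count of 3 was 0 without any colitic Tmem173fl/fl library and 1, 2 and 4 without Tmem173iΔmye replicates 2, 1 and 5. Their sum was 599.3 to 1180 CPM in colitic Tmem173fl/fl and 99.1 to 143.0 CPM in colitic Tmem173iΔmye mice, including Lcn2, an iron-binding lipocalin that epithelium also makes, at 767.0 and 61.4 CPM on average. Neutrophil elastase (Elane) had 0 reads in colitic Tmem173iΔmye and in untreated Tmem173fl/fl mice, and Mpo had 0 in untreated Tmem173fl/fl mice. No gene of the list was at 0 in colitic Tmem173fl/fl or untreated Tmem173iΔmye mice. The list holds 7 genes, of which 6 were tested, and a count of 0 is no test of genotype.

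Csf2ra and Csf2rb were set against monocyte and macrophage markers, of which 8 of 14 were called higher with DSS in Tmem173fl/fl mice and 3 of 14 (Cd163, Mrc1 and Itgam) lower in Tmem173iΔmye than in Tmem173fl/fl colitis. The 3 became 0 without Tmem173fl/fl replicate 1 or Tmem173iΔmye replicate 2, 1 without Tmem173fl/fl replicate 2 or 3, 2 without Tmem173iΔmye replicate 5 and 5 without its replicate 1. Their sum ran from 1004 to 1245 CPM in colitic Tmem173fl/fl mice and from 450.3 to 762.0 CPM in colitic Tmem173iΔmye mice, with no marker at 0. Relative to the mean of these markers Csf2rb was 0.86 higher on the log2 scale in colitic than in untreated Tmem173fl/fl mice, with no overlap (exact permutation p = 0.1, the smallest possible), and Csf2ra -0.48 (exact permutation p = 0.2), with overlap. Between colitic genotypes the relative levels of both chains overlapped, with differences of 0.29 for Csf2ra (exact permutation p = 0.4) and -0.32 for Csf2rb (exact permutation p = 0.6). Against the sum of the markers, also added after the data were seen, the groups no longer overlapped for Csf2ra, at -0.67 with DSS and 0.53 between colitic genotypes (exact permutation p = 0.1 each). For the latter the closest libraries of both groups were each at 0.0422 of the summed markers, nearly a tie. The part of these cells in the results for both chains was not tested.

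Markers of fibroblasts, a source of Csf1 and Csf3 in inflamed tissue, also differed between groups. Of 8 fibroblast markers 7 were called higher with DSS in Tmem173fl/fl mice, 2 in Tmem173iΔmye mice, and 5 were called lower in Tmem173iΔmye than in Tmem173fl/fl colitis. The 5 became 0 without Tmem173fl/fl replicate 1 or Tmem173iΔmye replicate 2, 2 and 1 without Tmem173fl/fl replicates 2 and 3, and 6 and 4 without Tmem173iΔmye replicates 1 and 5. The 2 called in Tmem173iΔmye mice became 0 without any untreated library and 5 without colitic replicate 5. Their sum was 1175 to 1492 CPM untreated, 8036 to 10230 CPM in colitic Tmem173fl/fl and 2334 to 3425 CPM in colitic Tmem173iΔmye mice, with no marker at 0. Endothelial markers were called higher with DSS for 6 of 6 genes in Tmem173fl/fl mice, and 1 (Cdh5) was lower in colitic Tmem173iΔmye mice, a count of 4 without Tmem173iΔmye replicate 1 and of 0 without its replicate 2 or any Tmem173fl/fl library. Epithelial markers were called lower for 5 of 7 in colitic Tmem173fl/fl mice, from sums of 10600 to 13270 CPM to 3752 to 6485 CPM, and stood at 8622 to 10290 CPM in colitic Tmem173iΔmye mice. Of the 7 epithelial markers, 0 were called with DSS in Tmem173iΔmye mice and 0 between colitic genotypes, where their median log2 fold change was 0.80. The part of these cells in the change of Csf1 and Csf3 was not tested.

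The other ligands and chains of the same receptors were also higher with DSS. All 5 tested were called higher in Tmem173fl/fl mice: Il5ra (the IL-5 binding chain; log2 fold change 4.24, SE 0.50), Csf2rb2 (2.75, SE 0.20), Il3ra (the IL-3 binding chain; 2.36, SE 0.23), Il34 (1.91, SE 0.21) and Csf1r (1.77, SE 0.20), each with an edgeR adjusted p of 0.000137 or less. In Tmem173iΔmye mice 3 of 5 were called, Il5ra (5.08, SE 0.90, adjusted p = 0.0202), Csf2rb2 (1.91, SE 0.38, adjusted p = 0.0322) and Il34 (1.66, SE 0.33, adjusted p = 0.0335). The 3 became 0 without any untreated library, 1 (Il5ra, 3.70) without colitic replicate 1, 2 without replicate 2, and 5 without replicate 5. Between colitic genotypes the smallest adjusted p of the 5 was 0.0810, for Il3ra (-0.97, SE 0.25), which was called without Tmem173iΔmye replicate 1 (-1.21, adjusted p = 0.0287).

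Csf1r, the receptor of Csf1, was at 147.0, 193.4 and 124.1 CPM in colitic Tmem173fl/fl mice and 167.6, 102.7 and 50.1 CPM in colitic Tmem173iΔmye mice. Replicate 1 lay within the colitic Tmem173fl/fl range and replicate 5 within the untreated range of 38.5 to 53.7 CPM. Il34, the second ligand of Csf1r, was at 18.9, 21.9 and 16.3 CPM and at 13.1, 9.02 and 16.7 CPM in the same groups. In replicate 5 of the colitic Tmem173iΔmye group Csf1 was at 0.419 of the Il34 FPKM. It was also below Il34 in replicate 2 of that group, at 0.819, and in colitic Tmem173fl/fl replicate 3, at 0.942, and exceeded it in all untreated libraries, at 1.45 times or more. Il3 had 0 reads in all 12 libraries and Il5 between 0 and 7, and neither was tested.

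Among 13 kinases, STAT factors and inhibitors used by these receptors, 3 were called higher with DSS in Tmem173fl/fl mice, against 14.9% of all genes, and 4 had a negative estimate. Their median log2 fold change was 0.51. Socs3, the feedback inhibitor of G-CSF and IL-6 signalling, rose from 19.3 to 321.4 CPM (log2 fold change 4.13, SE 0.20, edgeR adjusted p = 9.27e-07), Inpp5d by 1.24 and Stat3 by 1.06. In Tmem173iΔmye mice Socs3 alone was called (2.55, SE 0.41, adjusted p = 0.0145). It kept that call without each colitic library (2.04 without replicate 1 and 2.96 without replicate 5) and lost it without each untreated one (adjusted p from 0.112 to 0.128). Between colitic genotypes 0 of the 13 were called. Socs3 was at -1.24 (edgeR adjusted p = 0.1485), and at -1.78 (adjusted p = 0.0369) and called without Tmem173iΔmye replicate 1.

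Of 11 transcription factors of the myeloid lineage, 6 were called higher and 1 lower in Tmem173fl/fl mice with DSS. Cebpb and Cebpd, C/EBP factors of the acute response and of granulocytes, rose by 3.45 (SE 0.25) and 3.15 (SE 0.25), and both were lower with colitis in Tmem173iΔmye than in Tmem173fl/fl mice, by log2 fold changes of -1.88 (SE 0.21, edgeR adjusted p = 0.00990) and -1.68 (SE 0.22, adjusted p = 0.0137). Both calls were lost without Tmem173fl/fl replicate 1 (adjusted p = 0.0629 and 0.0694) and without Tmem173iΔmye replicate 2 (0.0508 and 0.0522), and stood without each other library. Spi1, which encodes the macrophage factor PU.1, rose by 1.97 (SE 0.23).

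Of 8 cytokines known to induce colony-stimulating factors, 4 were called higher with DSS in each genotype. In Tmem173fl/fl mice these included Il6 (7.99, SE 0.67), Il1a (3.64, SE 0.45) and Il33 (3.55, SE 0.36). In Tmem173iΔmye mice they were Il6 (6.61, edgeR adjusted p = 0.000814), Il1a (3.16, SE 0.48), Il33 (2.49, SE 0.29) and Tnf (1.62, SE 0.33). The rise of Il6 in Tmem173iΔmye mice was called without each library in turn (edgeR adjusted p from 0.000168 to 0.023). Between colitic genotypes 1 of 8 was called, Il6, which was lower in Tmem173iΔmye mice (-2.36, SE 0.46, edgeR adjusted p = 0.0346). Il6 kept that call without Tmem173fl/fl replicate 2 and Tmem173iΔmye replicate 1 and lost it without each other library (adjusted p from 0.0796 to 0.136). In the same comparison 2 of the 8 had a positive estimate and 6 a negative one. Tnf was among the positive ones, at 1.18, and was not called (edgeR adjusted p = 0.0969). The 4 called in Tmem173iΔmye mice became 1 or 2 without an untreated library, 3 without colitic replicate 1 or 2, and 5 without replicate 5.

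Genes whose levels ran most like each member were ranked by Pearson's r of log2(CPM + 1) over the 12 libraries, among 14558 genes with a mean FPKM of at least 1. The 12 points share the DSS contrast, so the values describe these libraries only. Csf3 ran closest to the neutrophil chemokine Cxcl3 (r = 0.995, Spearman's rho = 0.954), followed by Lcn2, Pde7b, Pappa and Adam23. Csf1 ran closest to Tgfb1 (r = 0.976, rho = 0.846), then Plxnd1, Zdhhc8, Anxa6 and Map7d1. Csf2, with its few reads, ran closest to Fam171a2 (r = 0.957), then to the immediate early genes Egr2, Nr4a1 and Cyr61, and to P3h4. For Csf3r the order was Tgm2 (r = 0.984, rho = 0.846), Plekhm3, Gm14548, Rab3il1 and Madcam1, with no gene of the neutrophil list among the 5. Csf2ra ran closest to the NF-kB subunit gene Relb (r = 0.944), followed by F420014N23Rik, Syt11, Cyth4 and Hmgn3. Csf2rb had Map3k14 (r = 0.980), the kinase of the same NF-kB branch, then Fam43a, Psap, Csf1r and Slc15a3.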

How the data were processed

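The authors deposited whole-number counts and FPKM per gene and library; per the labels and the submitters' processing notes, they were made on GRCm38 with CASAVA 1.8, fastp, HISAT2 2.0.5 and featureCounts 1.5.0-p3; strand use is not given in the sources used here. The deposited FPKM values divide those counts by gene length and library total. The authors' log2 fold changes, p-values and group means (DESeq2 1.20.0) were not used. Members and gene lists were chosen with earlier results of these data known.

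Counts of the 24102 genes that reached 0.1 FPKM in 3 or more libraries were tested with edgeR 4.0.16 (TMM, quasi-likelihood F test, R 4.3.3), with only the compared groups in a fit and all 12 libraries in the interaction. Calls needed an adjusted p under 0.05 (Benjamini-Hochberg over all genes tested) and a log2 fold change of 1 or more in size. The SE is the estimate divided by the root of F. A library with 3 or fewer counts was at the floor. Alternatives were DESeq2 1.42.0, limma 3.58.1 on log2(FPKM + 0.1) and log2(FPKM + 1), RLE scaling, no filter, 1 fit of all libraries, leaving out each library and a replicate block. All members, and of each list up to 3 called genes with the largest change at a mean FPKM of at least 1, were named; other list genes named were chosen after their values were seen. The test code was tried on simulated data. Each library is 1 mouse, and p-values measure the spread between mice.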

Additional observations from a re-analysis of the deposited data

How the results depend on the processing

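The number of members called with DSS in Tmem173fl/fl mice was 5, and 4 or 5 in every alternative, since Csf2 lost its call in 11 of them and Csf2ra gained one in 1. With DSS in Tmem173iΔmye mice it was 1, and 0 with limma at either pseudocount. It was 3 (Csf3, Csf3r and Csf2rb) with DESeq2, with no filter, in 1 fit of all 12 libraries and with the replicate block, whose estimates there came from replicates 1 and 2 alone. It ran from 0, without any untreated library, to 3, without colitic replicate 5. Between colitic genotypes it was 1, and 0 with limma at either pseudocount and 2 (Csf1 and Csf3) in 1 fit of all 12 libraries. It ran from 0, without any colitic Tmem173fl/fl library or Tmem173iΔmye replicate 2, to 2 (Csf1 and Csf3r), without Tmem173iΔmye replicate 1. For the interaction it was 0, and 1 (Csf1) with no filter and 1 (Csf3) with limma on log2(FPKM + 1), where both untreated groups sit at the pseudocount, so that the value is the colitic difference itself (-3.12), not called on that scale (adjusted p = 0.0715),, and leaving out libraries gave 0 to 2. In untreated mice it stayed at 0.

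Signs changed only for estimates that were not called, and only when a library was left out, here given as ranges over the libraries left out. Csf1 with DSS in Tmem173iΔmye mice ran from -0.27, without colitic replicate 1, to 0.46. Between untreated genotypes Csf2 ran from -2.73 to 0.36 and Csf2ra from -0.26 to 0.10. The interaction ran from -2.34 to 0.79 for Csf2 and from -0.57 to 0.0435 for Csf2ra. Csf2rb relative to macrophage markers in colitic mice ran from -0.60 to 0.0083, the latter without Tmem173iΔmye replicate 5. Against summed markers, added after the data were seen, the relative Csf3r differences became 0.37 between colitic genotypes and -0.21 with DSS in Tmem173fl/fl mice, both with overlap, and 1.99 and -3.62 without Ly6g in the sum, both without overlap. Those of Csf2ra and Csf2rb moved by less than the larger SD of the groups compared, and Csf2ra lost its overlap in both comparisons.

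Counts over all genes moved more: from 501 to between 41 and 1469 with DSS in Tmem173iΔmye mice, from 678 to between 27 and 1619 between colitic genotypes, from 614 to between 267 and 1728 for the interaction, from 5422 to between 2838 and 5663 with DSS in Tmem173fl/fl mice, and from 0 to at most 94 between untreated genotypes. Deviations of same-numbered libraries from their group means had correlations from -0.17 to 0.18, and replicate 5 had no partner. These values show no clear pairing by number and cannot exclude one. With the replicate block the colitic Csf3 difference was -3.12 (edgeR adjusted p = 0.00113), and of the members the block changed the calls of Csf2 with DSS in Tmem173fl/fl mice and of Csf3r and Csf2rb with DSS in Tmem173iΔmye mice. With DSS in Tmem173iΔmye mice and between colitic genotypes, the libraries numbered 3 and 5 were each alone in their block. Block estimates of those comparisons therefore came from replicates 1 and 2 alone, without replicate 5. The causes of the changes in counts and calls were not tested. Depth limits Csf2, at 0 to 11 reads per library.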
